A study of Mus musculus with 9 samples.

Results

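The AP-1 family was followed in mouse liver after acetaminophen (APAP) overdose through 10 genes, taken by symbol from a deposited table of 54532 genes. These were Fos, Fosb, Fosl1 and Fosl2 of the FOS group, Jun, Junb and Jund of the JUN group, and their relatives Atf3, Maff and Batf. RNA was sequenced from whole livers of 9 male C57BL/6 mice, 5 to 7 weeks old, with 3 livers in each of 3 groups. The NC group held control livers, and the sources used here do not say whether these mice were fasted or injected with solvent. The APAP group was fasted overnight, received 500 mg/kg APAP intraperitoneally and was studied 6 h later. The AMSC group received the same fast, dose and time, together with mesenchymal stem cells from the inguinal fat of C57BL/6 mice, given through the tail vein directly after APAP. Whether the stem cells came from more than a single preparation is not given in the sources used here.

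AP-1 is a dimer of proteins that share a basic region, which contacts DNA, and a leucine zipper, which joins the partners (bZIP proteins). FOS proteins pair with JUN proteins, whereas JUN proteins can also pair with each other, and the dimers bind the TPA response element and the related cyclic AMP response element. Fos and Jun are immediate-early genes, which are transcribed within minutes of growth factors or stress without new protein synthesis. The kinase JNK, named after Jun, phosphorylates Jun protein and is known to be activated in the liver by APAP. Jun is known in the liver for its role in hepatocyte survival and regeneration.

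Gene positions are on GRCm38. Values were FPKM, that is, fragments scaled to gene length and to a factor for each library, here a size factor of the median-of-ratios kind. Levels of different genes can thus be compared. The libraries held 13418921 to 16210930 reads on genes. A read on a gene of 1 kilobase was worth 0.0578 to 0.0807 FPKM, so the lowest levels given here come from a handful of reads. The 10 hepatocyte genes checked, albumin among them, were detected in every group, with summed levels of 42809 to 66451 FPKM per library. NC replicate 3 carries another date in its label than the other libraries, and leaving it out changed none of the calls of AP-1 genes given here. In whole liver, fewer cells of a type and less RNA per cell cannot be told apart.

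The 3 comparisons asked what the overdose changed, what AMSC treatment changed after the overdose, and what still differed from control livers. Log2(FPKM + 1) was tested with limma for the 9699 genes that averaged 1 FPKM or more over the 9 libraries, and log2 fold changes (log2FC) are on this scale. A gene was called where its Benjamini-Hochberg adjusted p did not exceed 0.05 and its log2FC was 1 or more, up or down. For gene lists, counts at an unadjusted p under 0.05 are also given. The share of all genes under that limit is not given here, so these counts are descriptions only. Of the 10 AP-1 genes, 9 passed the filter and Batf did not. Fos, Fosb, Fosl1, Fosl2 and Atf3 were under 1 FPKM on average in the NC group and passed through the dosed groups, so their calls against NC follow in part from the filter. Fosl1, also under 1 FPKM in the AMSC group, passed through the APAP group alone, so the filter also favours its fall in AMSC against APAP.

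Apart from the JUN genes, the AP-1 genes averaged at most 1.05 FPKM in control liver, and several were among the abundant transcripts of the liver after APAP, where Atf3 and Jun ranked 220 and 242 of all genes by mean FPKM. The summed level of the 10 genes was 31.9, 34.8 and 34.4 FPKM in NC replicates 1, 2 and 3. It was 665, 1499.5 and 1198 FPKM in APAP replicates 1, 2 and 3, and 1076, 789 and 1079 FPKM in AMSC replicates 2, 3 and 4. Every dosed library was far above every control library, whereas the dosed groups overlapped. All 9 tested members were called higher after APAP than in control liver, as were 5.09% of all genes tested. In AMSC against NC livers, 8 of them were called higher, against 3.92% of all genes tested. Each of the 10 genes had all its APAP values above all its NC values, and all but Fosl1 and Batf had all their AMSC values above them; such separation was found for 20.9% and 23.2% of all genes tested. Between the AMSC and APAP groups, 1 member was called lower and 0 higher by limma, against 1.22% and 0.742% of all genes tested.

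**Figure D1:**
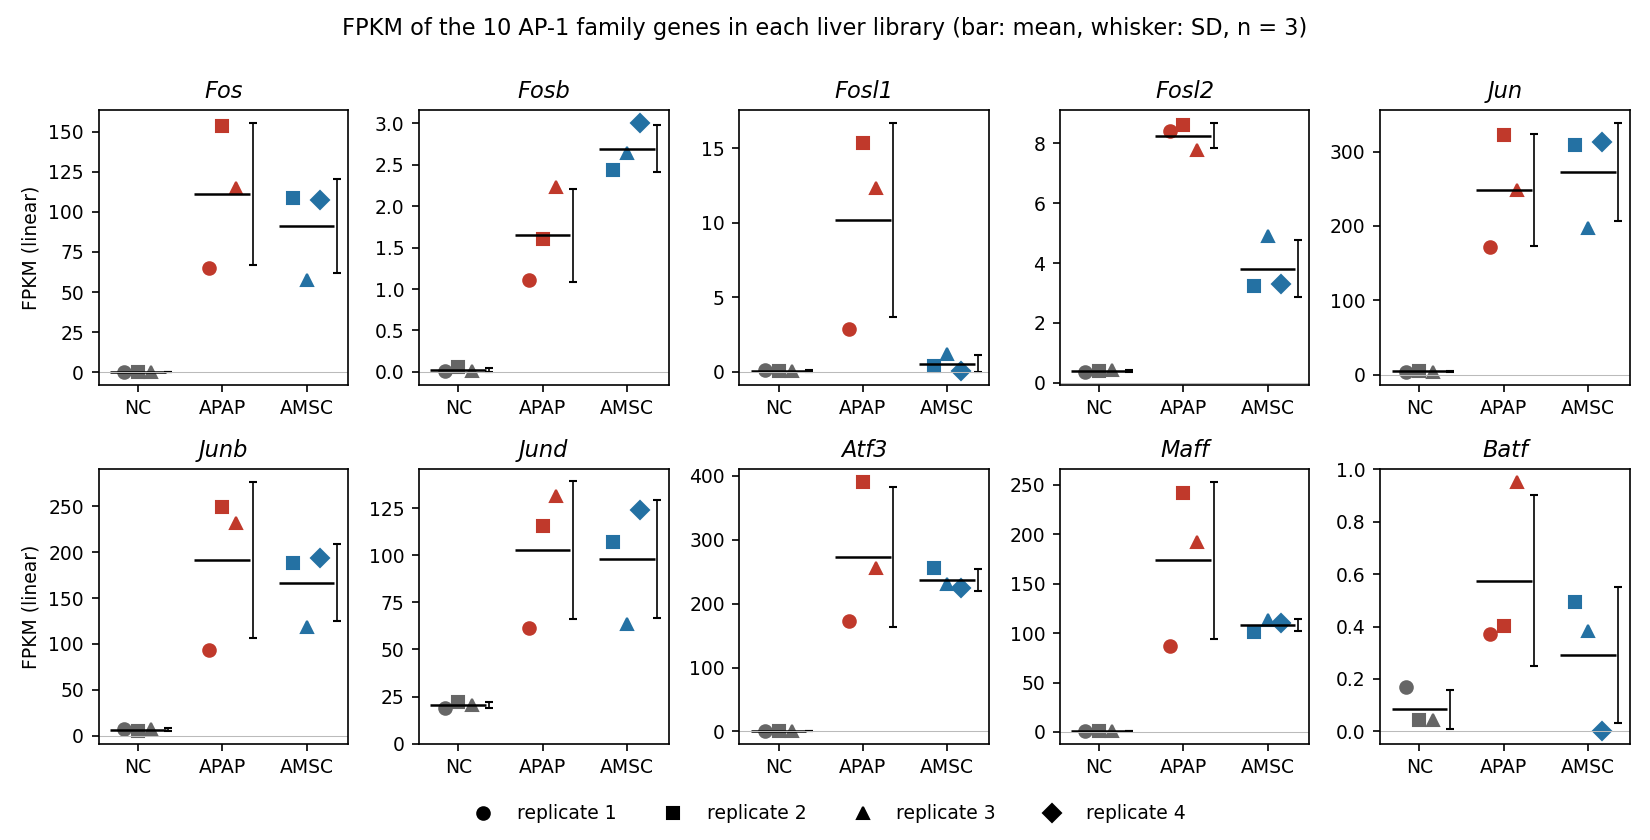
FPKM (y axis, linear) of each AP-1 gene in the 3 NC, 3 APAP and 3 AMSC libraries, with a symbol for each replicate number, a horizontal bar at the group mean and a whisker of 1 SD. Control libraries lie near 0 on the scale of each panel except for Jund and Batf, and the blue AMSC points are below the red APAP points for Fosl1 and Fosl2 and above them for Fosb.

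Jund (ENSMUSG00000071076, chr8:70698949-70700616, plus strand), the JUN member that is known to be expressed without stimulation, had 18.8, 21.9 and 20.8 FPKM in NC replicates 1, 2 and 3. It was the highest member in control liver and made up 58.9% to 62.9% of the summed level. In the dosed livers it had 61.3, 116 and 131 FPKM in APAP replicates 1, 2 and 3 and 107, 63.2 and 124 FPKM in AMSC replicates 2, 3 and 4. The control libraries were all below the dosed libraries, and the dosed groups overlapped throughout. Jund had the smallest ratio of APAP to NC means among the 10 genes, at 5.02 (log2FC 2.20, SE 0.27, adjusted p = 0.00149 from limma). In the AMSC group against the APAP group its log2FC was -0.05, with a 95% interval from -0.83 to 0.73 (adjusted p = 0.957 from limma).

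Jun (ENSMUSG00000052684, chr4:95049034-95052222, minus strand), the partner that gives JNK its name, had 4.02, 5.35 and 3.83 FPKM in NC replicates 1, 2 and 3. It reached 172, 323 and 249 FPKM in APAP replicates 1, 2 and 3 and 309, 197 and 313 FPKM in AMSC replicates 2, 3 and 4. Jun was thus separated from control in every dosed library, and its mean was 56.3 times the NC mean in the APAP group and 62.0 times in the AMSC group. The log2FC was 5.49 (SE 0.23, adjusted p = 1.68e-05 from limma) for APAP against NC. Between the AMSC and APAP groups it was 0.15, with a 95% interval from -0.47 to 0.78. By mean level, Jun was the highest of the 10 genes in the AMSC group and came second, after Atf3, in the APAP group.

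Junb (ENSMUSG00000052837, chr8:84974484-84978718, minus strand), a JUN member known as an immediate-early gene, had 6.93, 4.88 and 7.68 FPKM in NC replicates 1, 2 and 3. It had 93.5, 249 and 232 FPKM in APAP replicates 1, 2 and 3, and 188, 118 and 194 FPKM in AMSC replicates 2, 3 and 4. The dosed libraries were all higher than control, with APAP replicate 1 and AMSC replicate 3 the lowest of their groups. The log2FC for APAP against NC was 4.58 (SE 0.36, adjusted p = 0.000224 from limma), and for AMSC against APAP -0.11, with a 95% interval from -0.99 to 0.77. The last 351 bases of Junb overlap Prdx2 on the other strand, and Prdx2 had means of 36.9, 38.7 and 32.9 FPKM in the NC, APAP and AMSC groups. Jun overlaps the antisense gene Junos, which had at most 0.138 FPKM in any library, and Jund and Atf3 each overlap a gene that was listed at 0 in all 9 libraries.

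The makeup of the JUN group differed between control and dosed livers. Jund made up 63.1% to 68.2% of the summed JUN level in the NC libraries, 16.8% to 21.5% in the APAP libraries and 16.7% to 19.6% in the AMSC libraries. Jun made up 11.9% to 16.6%, 40.7% to 52.6% and 49.6% to 52.0% in the same order. In control liver the JUN pool was therefore mostly Jund, and in dosed liver mostly Jun and Junb. These shares follow from the levels given above and were not tested.

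**Figure D2:**
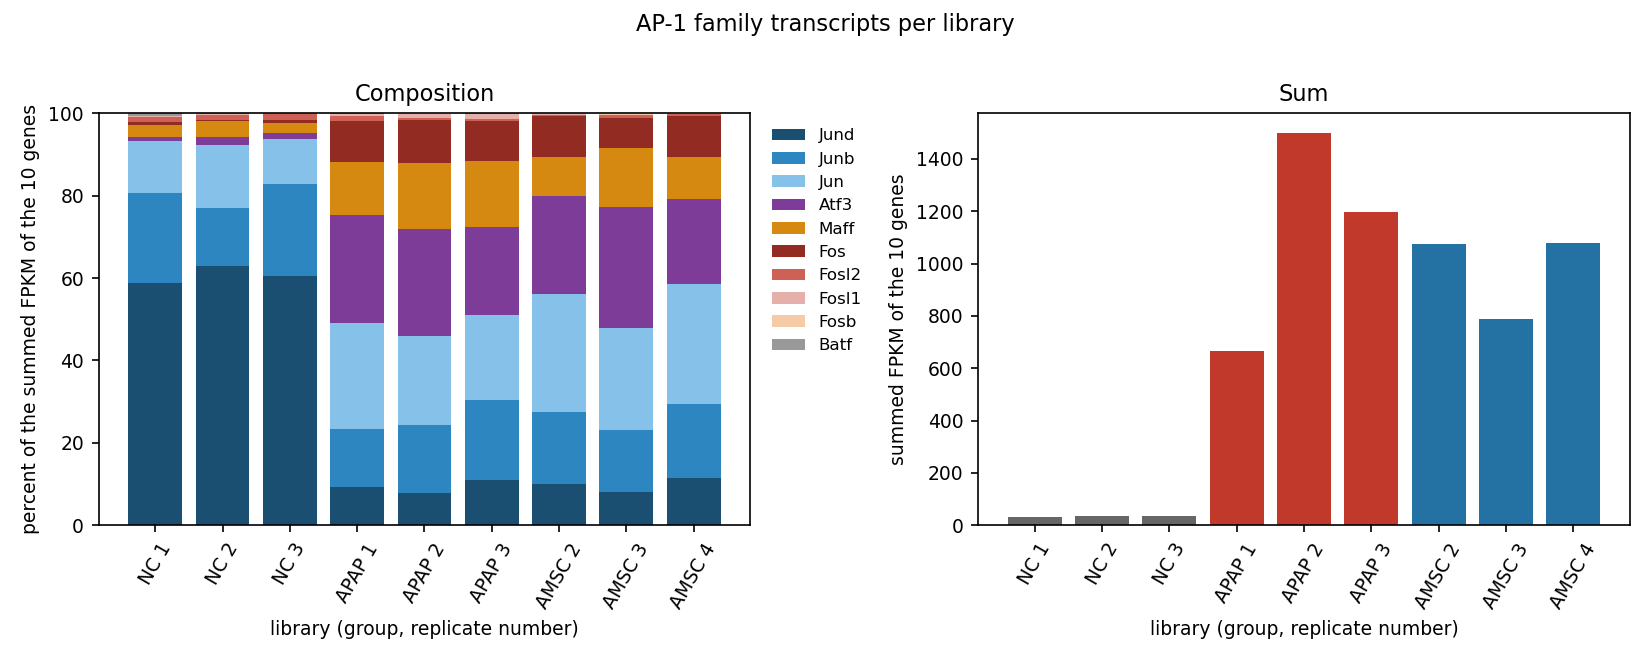
Left, percent of the summed FPKM of the 10 AP-1 genes (y axis) taken by each gene in each of the 9 libraries; right, the sum itself in FPKM. Jund (dark blue) fills 58.9% to 62.9% of the control bars, and Jun, Junb, Atf3, Maff and Fos share the dosed bars, whose sums run from 665 to 1499.5 FPKM against 31.9 to 34.8 in control.

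Fos (ENSMUSG00000021250, chr12:85473890-85477273, plus strand), the founding FOS member, was nearly silent in control liver, with 9, 4 and 11 reads in NC replicates 1, 2 and 3 (0.229, 0.0983 and 0.272 FPKM). It had 65.1, 153 and 115 FPKM in APAP replicates 1, 2 and 3, and 109, 57.3 and 107 FPKM in AMSC replicates 2, 3 and 4. All dosed libraries were above all control libraries, and AMSC replicate 3 was the lowest of the dosed libraries. Summed over each group, there were 10158 reads in the APAP group and 24 in the NC group, a ratio of 552 after scaling for depth (exact 95% interval 371 to 862, which covers counting error only). The log2FC for APAP against NC, which the pseudocount of 1 makes smaller, was 6.46 (SE 0.28, adjusted p = 1.87e-05 from limma). For AMSC against APAP it was -0.26, with a 95% interval from -1.08 to 0.56 and an adjusted p of 0.738 from limma.

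The bases before the starts of Fos, Jun, Atf3 and Maff are shown because these genes had the 4 largest log2FC of the AP-1 genes in APAP against NC. They are the 250 bases upstream of the RefSeq start (GRCm38.p6), 5′ to 3′ on the strand of the gene. Capitals mark matches, on either strand, to TGACG, TGACGTCA, TGATGNAA or TNACNTCA.
Fos, chr12:85473640-85473889, plus strand: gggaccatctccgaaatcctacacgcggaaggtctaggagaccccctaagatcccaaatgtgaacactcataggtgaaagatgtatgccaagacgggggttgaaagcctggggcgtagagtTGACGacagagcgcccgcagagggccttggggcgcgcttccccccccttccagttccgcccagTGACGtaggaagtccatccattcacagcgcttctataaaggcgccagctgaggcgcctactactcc
Jun, chr4:95052223-95052472, minus strand: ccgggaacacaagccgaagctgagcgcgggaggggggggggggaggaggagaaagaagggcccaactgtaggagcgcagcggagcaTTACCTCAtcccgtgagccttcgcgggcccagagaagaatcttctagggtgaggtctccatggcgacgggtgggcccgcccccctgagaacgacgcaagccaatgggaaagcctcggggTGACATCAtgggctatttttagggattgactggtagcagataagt
Atf3, chr1:191183334-191183583, minus strand: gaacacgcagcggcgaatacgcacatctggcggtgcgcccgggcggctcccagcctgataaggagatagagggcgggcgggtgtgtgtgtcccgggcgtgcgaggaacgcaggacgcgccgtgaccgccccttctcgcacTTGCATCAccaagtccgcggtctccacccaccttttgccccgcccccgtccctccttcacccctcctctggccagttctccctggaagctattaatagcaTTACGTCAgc
Maff, the second of 3 listed starts, chr15:79347270-79347519, plus strand: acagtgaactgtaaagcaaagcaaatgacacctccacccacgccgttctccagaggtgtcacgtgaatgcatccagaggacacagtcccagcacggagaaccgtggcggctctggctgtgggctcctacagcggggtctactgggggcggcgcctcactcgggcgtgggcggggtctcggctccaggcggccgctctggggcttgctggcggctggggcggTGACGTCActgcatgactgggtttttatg

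Promoters of 9 of the 10 genes were in the RefSeq table, with 11 starts in all. The full cyclic AMP response element TGACGTCA was found in Maff, 29 to 22 bases before its second start, and is present in 1.55% of all 32851 promoters of this length. Its core TGACG was found in 6 genes (Fos, Fosb, Junb, Atf3, Maff and Batf) and is present in 17.8% of all promoters; Fos has it at 129 to 125 and at 66 to 62 bases before the start. The C/EBP-ATF response element TGATGNAA was found in Atf3 alone among the 9 genes, 110 to 103 bases before the start, and is present in 3.45% of all promoters. TNACNTCA, a form of TGACGTCA with 2 free positions that includes every TGACGTCA and was chosen after these sequences had been seen, was found in 4 genes (Jun, Jund, Atf3 and Maff) against 14.0% of all promoters. Jun has it at 164 to 157 and at 45 to 38 bases before the start. The AP-1 site TGACTCA and the CArG box of serum response factor were found in 0 of the 9 genes within this window, against 4.46% and 1.47% of all promoters. The listed start of Jund lies upstream of the first base of the gene in the deposited table, and that of Atf3 within the deposited gene, so these windows need not be the starts in use in these livers.

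Atf3 (ENSMUSG00000026628, chr1:191170296-191218039, minus strand), a bZIP gene induced by many kinds of stress, had 0.362, 0.698 and 0.432 FPKM in NC replicates 1, 2 and 3, and 173, 391 and 256 FPKM in APAP replicates 1, 2 and 3. In AMSC replicates 2, 3 and 4 it had 256, 231 and 224 FPKM. The AMSC libraries lay within the range of the APAP libraries and were closer to each other, with an SD of 16.9 FPKM against 109.6 (n = 3 in each). The log2FC for APAP against NC was 7.45 (SE 0.27, adjusted p = 1.41e-05 from limma), which ranked 3rd of all rises. Against NC, the AMSC group had the largest rise of all genes tested at Atf3, 7.32 (SE 0.12, adjusted p = 4.48e-08 from limma). The interval for AMSC against APAP ran from -0.76 to 0.50 around -0.13.

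Maff (ENSMUSG00000042622, chr15:79346621-79359076, plus strand), a small MAF protein that has a bZIP domain but no activation domain, had 0.924, 1.36 and 0.874 FPKM in NC replicates 1, 2 and 3. It had 86.6, 242 and 192 FPKM in APAP replicates 1, 2 and 3, and 101, 113 and 110.5 FPKM in AMSC replicates 2, 3 and 4. APAP replicate 1 was below all AMSC libraries and the other APAP replicates above them, so the dosed groups overlapped. The log2FC was 6.29 (SE 0.35, adjusted p = 5.11e-05 from limma) for APAP against NC. For AMSC against APAP it was -0.55 (SE 0.34, adjusted p = 0.409 from limma), with a 95% interval from -1.34 to 0.23. Without APAP replicate 1 it was -0.99 (adjusted p = 0.0179), still short of the minimum fold change. It was -0.25 without APAP replicate 2 (adjusted p = 0.733) and -0.42 without APAP replicate 3 (adjusted p = 0.617).

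**Figure D3:**
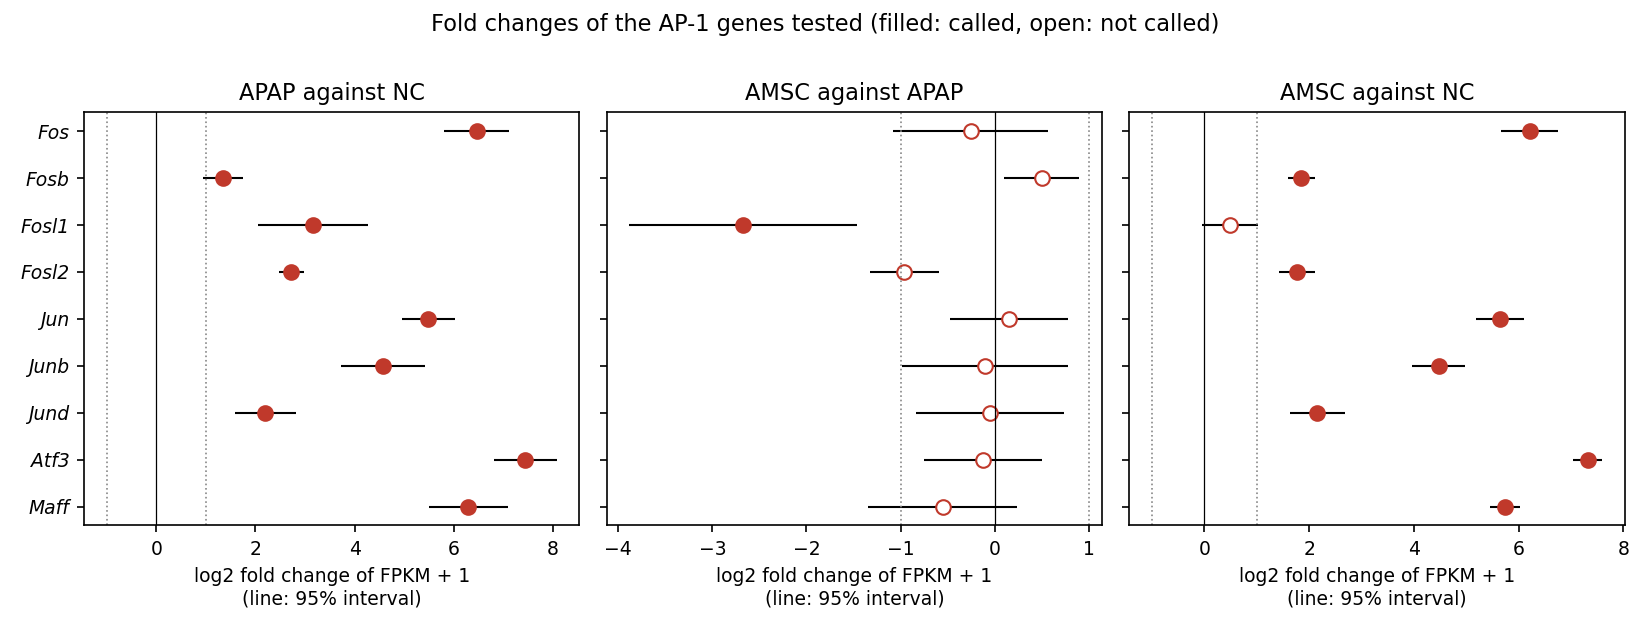
Log2FC of FPKM + 1 (x axis) of the 9 AP-1 genes tested, one panel for each comparison, with 95% intervals from limma, dotted lines at -1 and 1, and filled points for called genes. All 9 points of APAP against NC are filled, and in AMSC against APAP only Fosl1 is filled, with Fosl2 next at -0.96.

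Fosl1 and Fosl2, which encode the FOS proteins Fra-1 and Fra-2, were lower in every AMSC library than in every APAP library. Fosl1 (ENSMUSG00000024912, chr19:5447703-5455945, plus strand) had 3, 1 and 1 reads in NC replicates 1, 2 and 3, and 2.88, 15.4 and 12.4 FPKM in APAP replicates 1, 2 and 3 (66, 325 and 284 reads). In AMSC replicates 2, 3 and 4 it had 0.406, 1.17 and 0.0780 FPKM (11, 26 and 2 reads). The lowest APAP library, replicate 1, was thus still above the highest AMSC library, replicate 3. Groups without overlap in this direction were found for 12.4% of all genes tested.

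Fosl1 was the single AP-1 gene called between the AMSC and APAP groups, with a log2FC of -2.67 (SE 0.52, adjusted p = 0.0374 from limma). This was the 8th largest fall of all genes tested. As the gene passed the filter only through the APAP group, where it was high, the call is no independent support for the fall. The group means were 10.2 ± 6.52 FPKM in the APAP group and 0.552 ± 0.561 FPKM in the AMSC group (SD over 3 livers each), which is a ratio of 18.5. The call did not hold in voom on recovered reads (adjusted p = 0.0716, log2FC -4.52) or when all genes above 0 were tested (0.202), where 0.0684% of genes were called lower. It was also lost without APAP replicate 2 (adjusted p = 0.0670) or 3 (0.114) and without AMSC replicate 2 (0.101), 3 (0.0911) or 4 (0.130). Against NC, Fosl1 was called in the APAP group (log2FC 3.16, SE 0.48, adjusted p = 0.00351) but not in the AMSC group (0.49, SE 0.23, adjusted p = 0.162), where the ratio of scaled reads was 9.09 (exact 95% interval 3.58 to 29.6).

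Fosl2 (ENSMUSG00000029135, chr5:32135801-32157842, plus strand) had 0.359, 0.400 and 0.444 FPKM in NC replicates 1, 2 and 3 and rose to 8.40, 8.59 and 7.78 FPKM in APAP replicates 1, 2 and 3. It was at 3.22, 4.91 and 3.31 FPKM in AMSC replicates 2, 3 and 4. The 3 groups did not overlap, in the order NC, AMSC, APAP, and the APAP libraries agreed more closely for Fosl2 than for any other member, with a coefficient of variation of 5.16%. For APAP against NC the log2FC was 2.72 (SE 0.11, adjusted p = 1.41e-05 from limma). For AMSC against APAP it was -0.96 (SE 0.16, adjusted p = 0.0246), which met the limit on p, as did 3.78% of all genes tested, but fell short of the fold limit. The fold limit was reached with a pseudocount of 0.1 (-1.12, adjusted p = 0.0265), in voom on recovered reads (-1.15, 0.0112), where Fosl2 was the AP-1 gene called in place of Fosl1, and without AMSC replicate 3 (-1.12, 0.0220). The limit on p was missed when all genes above 0 were tested (adjusted p = 0.115), without APAP replicate 3 (0.0645), without AMSC replicate 2 (0.0805) or 4 (0.0997) and with the replicate block (0.0733). Fosl2 remained called in AMSC livers against NC, at 1.76 (SE 0.15, adjusted p = 0.000157).

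Fosb went the other way. The gene (ENSMUSG00000003545, chr7:19302696-19310051, minus strand) had 1, 6 and 1 reads in NC replicates 1, 2 and 3, and 1.11, 1.60 and 2.23 FPKM in APAP replicates 1, 2 and 3. In AMSC replicates 2, 3 and 4 it had 2.44, 2.64 and 3.01 FPKM. Each AMSC library was above each APAP library, as were 14.6% of all genes tested. The log2FC of 0.50 (SE 0.17, adjusted p = 0.155 from limma) did not pass, with an unadjusted p of 0.0204, and a 95% interval from 0.10 to 0.90. Fosb was called against NC in both dosed groups, with log2FC of 1.35 in APAP livers (SE 0.17, adjusted p = 0.00192) and 1.85 in AMSC livers (SE 0.11, adjusted p = 2.97e-05).

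Within the FOS group, Fos itself took 83.7% to 85.7% of the summed FOS level in the APAP libraries and 86.8% to 94.7% in the AMSC libraries. In control liver Fosl2 was the main FOS transcript, with 51.1% to 68.1%. FOS genes together made up 1.80% to 2.31% of the summed FOS and JUN level in the NC libraries, 18.3% to 20.7% in the APAP libraries and 14.9% to 15.97% in the AMSC libraries. With Fos as the single FOS gene, the shares were 15.8% to 18.2% in the APAP libraries and 13.1% to 15.3% in the AMSC libraries. The 3 groups did not overlap in these shares, which are descriptions of the members and were not tested.

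Batf (ENSMUSG00000034266, chr12:85686669-85709087, plus strand), a bZIP gene known mainly from lymphocytes, was close to the detection limit. It had 4, 1 and 1 reads in NC replicates 1, 2 and 3, then 7, 7 and 18 reads in APAP replicates 1, 2 and 3. In AMSC replicates 2, 3 and 4 there were 11, 7 and 0 reads, where a count of 0 allows up to 3 reads. Each APAP library was above each NC library in FPKM, and the AMSC group overlapped both. When all 24849 genes above 0 were tested, its log2FC for APAP against NC was 0.52 (adjusted p = 0.131 from limma), and 9 of the 10 AP-1 genes were called higher, against 1.53% of the genes in that test. The 10 lymphocyte markers checked summed to 1.02 to 2.52 FPKM in the NC libraries, 2.16 to 3.65 in the APAP libraries and 1.83 to 2.51 in the AMSC libraries, with 0 of 10 passing the filter. Their part in the values of Batf was not tested.

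Among the APAP livers, a single animal was low for most members. APAP replicate 1 had the lowest value of its group for 9 of the 10 genes, Fosl2 being the exception, while it was the lowest library for 38.4% of all genes tested. Its log2(FPKM + 1) lay 1.29 below the group mean for Fosl1, 0.90 below for Junb and 0.87 below for Maff. In the AMSC group, replicate 3 was the lowest for Fos, Jun, Junb and Jund and the highest for Fosl1, Fosl2 and Maff. These 4 and 3 of 10 genes are close to its shares of all genes tested, 37.1% lowest and 36.2% highest. It lay between 0.44 and 0.60 below the group mean for the first 4 genes and 0.55 above it for Fosl1. With APAP replicate 1 left out, 9 AP-1 genes were still called higher in the APAP group than in the NC group and Fosl1 was still called lower in AMSC than in APAP livers, where its log2FC was then -3.31 (adjusted p = 0.00280 from limma).

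**Figure D4:**
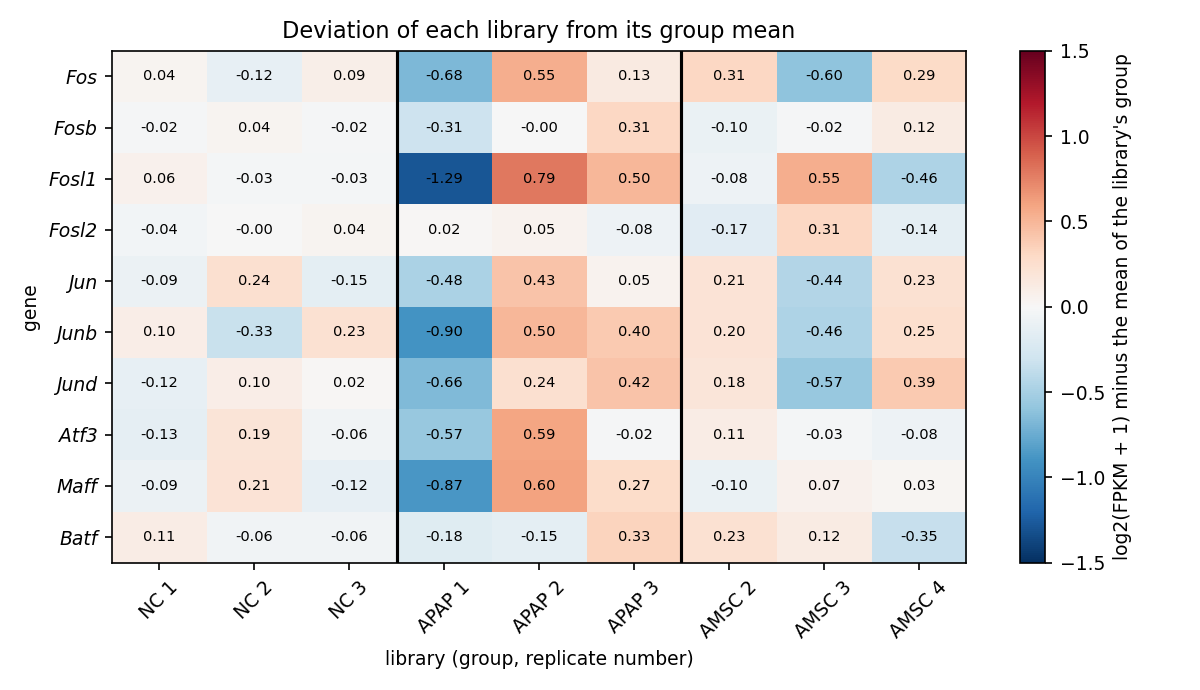
Log2(FPKM + 1) of each AP-1 gene (rows) in each library (columns) minus the mean of that library's group, in color and as a number, with vertical lines between the NC, APAP and AMSC groups. APAP replicate 1 is blue (below its group) for 9 of 10 genes, and AMSC replicate 3 is below its group for Fos, Jun, Junb and Jund and above it for Fosl1 and Fosl2.

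Markers of macrophages, neutrophils and endothelial cells had lower summed levels in the AMSC than in the APAP libraries, as did Fosl1 and Fosl2. The 10 hepatocyte markers summed to 57907 to 66451 FPKM in the APAP libraries and 54385 to 56658 FPKM in the AMSC libraries. That sum is mostly albumin, with means of 44835 FPKM in the APAP group and 33180 FPKM in the AMSC group. The median log2FC of the 10 hepatocyte markers was 0.04, and limma called 1 higher (Cyp2e1) and 0 lower. All 9 macrophage markers had lower means in the AMSC group, with a median log2FC of -1.30, and 8 were lower at an unadjusted p under 0.05. Limma called 1 of them lower (Cd68), against 1.22% of all genes tested. Voom called 2 lower, against 184 of all 9699 genes tested. The summed level of the 9 markers was 109 to 298 FPKM in the APAP libraries and 64.3 to 99.96 FPKM in the AMSC libraries. The 9 neutrophil markers summed to 7.52 to 34.8 and 4.51 to 6.01 FPKM, with Mpo, Camp and Ngp at 0 in the APAP group and Camp at 0 in the AMSC group. Of these, 3 passed the filter, with a median log2FC of -1.32. All 3 were lower at an unadjusted p under 0.05, and 0 were called by limma or voom. These 3 were highest in the APAP group, so the filter favours their fall. In APAP replicates 1, 2 and 3 the macrophage sums were 223, 109 and 298 FPKM and the neutrophil sums 34.8, 7.52 and 16.4 FPKM. Fosl1 had 2.88, 15.4 and 12.4 FPKM in the same order. The 8 endothelial markers summed to 27.5 to 72.2 FPKM in the APAP libraries and 24.4 to 25.3 FPKM in the AMSC libraries, with a median log2FC of -0.76, and 5 of the 8 were lower at an unadjusted p under 0.05 but 0 were called by limma and 1 by voom. The 12 stromal markers, which an injected mesenchymal cell could share, summed to 31.6 to 67.7 FPKM in the APAP libraries and 29.7 to 50.4 FPKM in the AMSC libraries. The part of these cells in the AP-1 values was not tested.

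The rest of the bZIP superfamily served as the nearest neighbours of the AP-1 genes. Of 42 other bZIP and bZIP-regulating genes considered in the table, 31 were tested, and 8 rose and 5 fell in the APAP group against the NC group, where 7.90% of all genes tested were called. Their median log2FC was 0.24, against 0.00 for all genes tested. Among MAF and JDP genes, Mafk, a small MAF protein like Maff, rose from 2.69 ± 0.171 to 25.1 ± 6.36 FPKM (SD, n = 3; log2FC 2.79), and Jdp2, a repressor that pairs with Jun, rose by 1.35. Jdp2 averaged 0.484 FPKM in the NC group, 2.82 in the APAP group and 1.02 in the AMSC group. It passed the filter mainly through the APAP group, which favours its rise here and a fall in AMSC against APAP. Bach1, a repressor that pairs with small MAF proteins, rose by 2.41. Ddit3, the stress factor CHOP, rose by 3.73, Nfil3 by 2.93, Cebpd by 1.77, Cebpb by 1.63 and Atf4 by 1.46. The clock output factors Dbp, Hlf and Tef fell by 2.11, 1.38 and 1.14. Crebzf fell by 1.14 and Atf6b fell by 1.04.

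In AMSC against APAP livers, 0 of the 31 genes were called by limma, where 1.96% of all genes tested were called. Voom called 1 higher and 1 lower, against 112 and 184 of all 9699 genes tested. By limma, Jdp2 had a log2FC of -0.89 (adjusted p = 0.0421) and Mafk one of -0.88 (adjusted p = 0.0552), so neither was called. Tef had a log2FC of 0.78 (adjusted p = 0.0343) and Hlf one of 0.85 (adjusted p = 0.0763), and these were not called either. At an unadjusted p under 0.05, for which no share of all genes is given, 6 of the 31 genes were higher and 4 lower. The median log2FC of the 31 genes was 0.13, against 0.01 for all genes tested. In AMSC against NC livers, where 6.01% of all genes tested were called, 8 rose, among them Ddit3 (4.27), Nfil3 (3.16), Cebpd (2.43), Cebpb (2.17), Bach1 (2.01) and Mafk (1.91), and 2 fell, Dbp and Atf6b.

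The genes that act on Fos and Jun were listed as kinases (among them the JNK genes Mapk8 and Mapk9), transcription factors of the Fos and Jun promoters and proteins that modify or degrade Jun. Of 27 tested, 2 rose in the APAP group against the NC group (Jdp2, which is also on the bZIP list, and Mef2d, an activator of the Jun promoter, by 1.37) and 0 fell by limma. These 2 genes are 7.41% of the list, near the 7.90% called among all genes tested, and Jdp2 passed the filter mainly through the APAP group. At an unadjusted p under 0.05 the counts were 10 and 4, and by voom 4 and 0. The median log2FC of the list was 0.12 in this comparison and -0.07 in AMSC against APAP, against 0.00 and 0.01 for all genes tested. Against the APAP group, where 1.96% of all genes tested were called, 0 were called in the AMSC group in either direction by limma, with 0 higher and 5 lower at an unadjusted p under 0.05 and 0 and 1 by voom. Mapk8 had 2.53 ± 0.266 FPKM in the APAP group and 2.27 ± 0.145 FPKM in the AMSC group (SD, n = 3), and Mapk9 had 7.31 ± 0.853 and 6.73 ± 0.263 FPKM. The transcript levels of the kinases say nothing of their phosphorylation.

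A list of 44 genes known as targets of AP-1, compiled by hand with earlier results of these data known, held 28 tested genes. In the APAP group against the NC group, 20 of these rose and 1 fell, where 7.90% of all genes tested were called, with a median log2FC of 2.12 against 0.00 for all genes tested. Hmox1, which encodes the heme-degrading enzyme heme oxygenase 1, rose from 6.34 ± 3.10 to 835 ± 280 FPKM (SD, n = 3; log2FC 6.85), Cdkn1a, which encodes the cell cycle inhibitor p21, by 5.58, and the metallothionein genes Mt2 and Mt1, which are paralogs, by 5.25 and 5.13. Ccnd1, which encodes cyclin D1, fell by 1.32. In AMSC against NC livers, 15 rose, against 3.92% of all genes tested, and 0 fell by limma, with 1 lower at an unadjusted p under 0.05 and 0 by voom.

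Between the AMSC and APAP groups, 4 of the 28 genes were called lower and 0 higher by limma, where 1.22% and 0.742% of all genes tested were called. The counts were 12 and 4 at an unadjusted p under 0.05 and 4 and 0 by voom. Their median log2FC was -0.30, against 0.01 for all genes tested. The genes that fell were Hbegf and Areg, ligands of the EGF receptor family, Plaur, the urokinase receptor, and the cytokine gene Il1b. Hbegf, Plaur and Il1b were under 1 FPKM on average in the NC and AMSC groups and passed the filter through the APAP group alone. Areg was under 1 FPKM on average in the NC group and barely above it in the AMSC group. It therefore also passed mainly through the APAP group, so the filter favours the fall of all 4 genes. Hbegf had 15.9 ± 8.61 FPKM in the APAP group and 0.569 ± 0.243 FPKM in the AMSC group (SD, n = 3), and Plaur had 2.997 ± 1.63 and 0.265 ± 0.149 FPKM, a log2FC of -1.57 (SE 0.31, adjusted p = 0.0373 from limma). In each of the 4 genes the AMSC libraries were all below the APAP libraries, as for Fosl1 and for 12.4% of all genes tested. Because the 4 genes were picked as called lower, this separation adds no support. Hmox1 (-0.30, adjusted p = 0.735) and Dusp1 (-0.45, adjusted p = 0.208) were not called, as was the case for Fos and Jun. The comparisons share the APAP libraries, so the rise and the later difference of a gene are not independent.

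**Figure D5:**
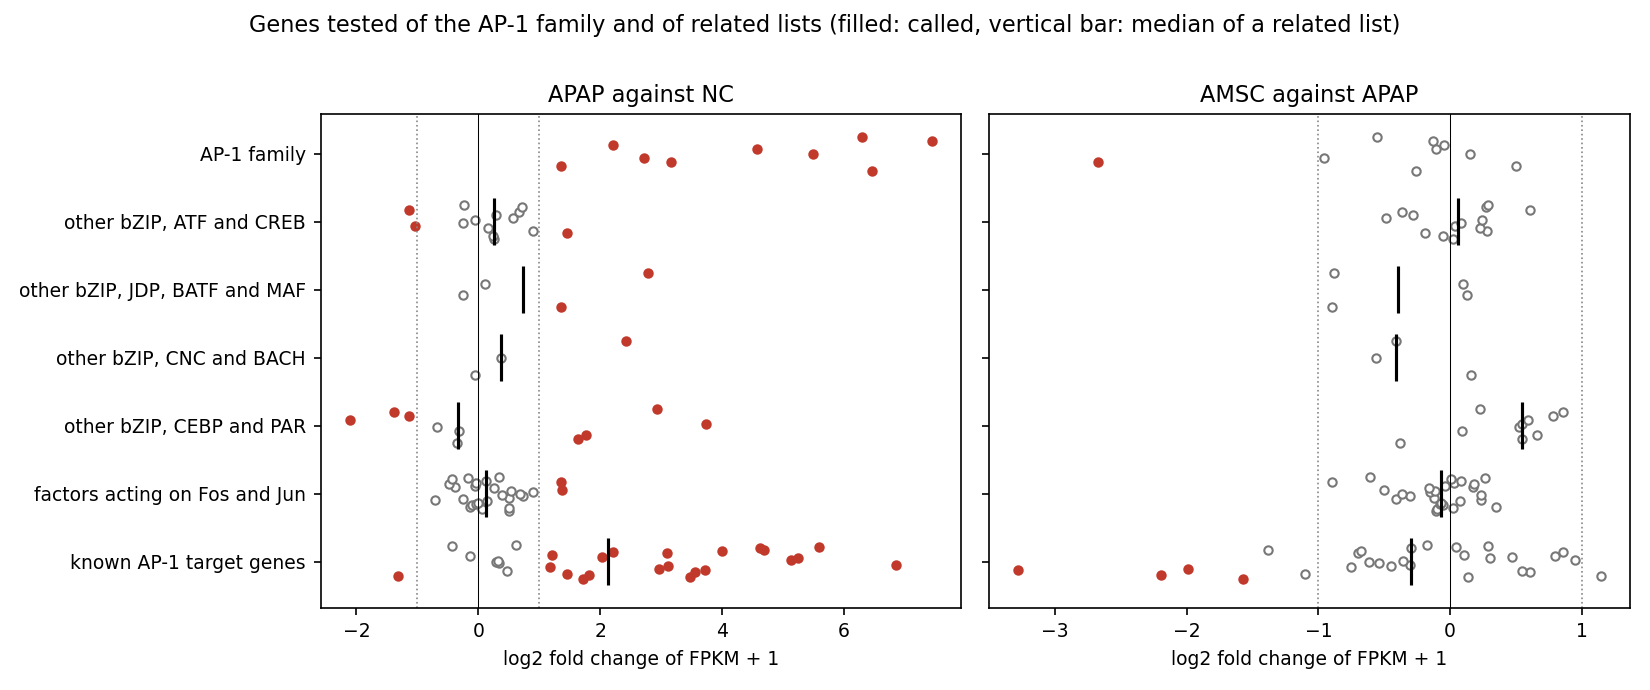
Log2FC of FPKM + 1 (x axis) of the tested AP-1 genes and of each related list (rows) in APAP against NC (left) and AMSC against APAP (right), with filled points for called genes and a vertical bar at the median of each related list. On the left the AP-1 row spans 1.35 to 7.45, and on the right the filled points are Fosl1 and 4 AP-1 target genes.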

How the data were processed

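The authors deposited FPKM values per gene with the gene length they used; per the submitters' processing notes the build was GRCm38 (mm10), while the aligner and counter are not given in the sources used here. Gene spans of the AP-1 genes other than Fosl1 were those of GENCODE vM21. FPKM times gene length was a whole multiple (within 0.1) of a step in each library for 100% of values above 0, so whole reads were recovered; the library scaling behind the FPKM followed size factors of the median-of-ratios kind. Log2(FPKM + 1) was tested with limma 3.58.1 (lmFit, eBayes with trend) in R 4.3.3, with 2 groups per fit and p-values adjusted over all 9699 genes averaging 1 FPKM or more. The paper's thresholds were kept; limma was chosen to suit the deposited FPKM, and voom on the recovered reads was an alternative. The paper calls the livers of a group biological replicates, and p-values measure the spread between these livers. Exact intervals of read ratios are binomial at 95%. The fit was tested on simulated data. Motifs were searched on both strands of the 250 bases before RefSeq starts. A gene of the list of other bZIP genes is not reported here and was left out of its counts and plot. Members and gene lists were chosen with earlier results of these data known; the named genes were all members, genes overlapping them, and up to 4 called genes of a list with the largest change, with others named after their values were seen. The labels and the paper give no pairing of the APAP and NC livers, and the main fits used none. Deviations of same-numbered APAP and NC libraries from their group means correlated at 0.213, 0.160 and 0.378, which does not establish a pairing. Blocking on the replicate number, as an alternative, changed no call of an AP-1 gene in APAP against NC. Alternatives were another pseudocount, other filters, quantile and median-of-ratios scaling, all libraries in a single fit, no trend, voom on recovered reads, the replicate block and leaving out each replicate.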

Additional observations from a re-analysis of the deposited data

How the results depend on the processing

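For APAP against NC and AMSC against NC, each tested AP-1 gene kept its direction and stayed called or not called wherever it was tested except for Fosl1 under voom with all genes above 0, and 6 were tested at a mean of at least 5 FPKM. Fosl1 in AMSC against NC, not called, passed a single limit without AMSC replicate 4 (adjusted p = 0.0486, log2FC 0.72), at a pseudocount of 0.1 (log2FC 1.65, adjusted p = 0.149) and under voom (2.38, 0.125). With voom and all genes above 0 together, a combination chosen after seeing the data, Fosl1 in APAP against NC had an adjusted p of 0.0568 and was not called, and 1791 genes were called there and 1485 in AMSC against NC. For AMSC against APAP, the count of AP-1 genes called was 2 with a pseudocount of 0.1, 0 when all genes above 0 were tested, 0 for a mean of at least 5 FPKM (which left Fosl1 untested) and 0 to 1 without single replicates. Log2 fold changes that crossed 0 in this comparison were those of Fos (-0.60 to 0.043 without single replicates), Jun (-0.085 to 0.37), Junb (-0.56 to 0.14), Jund (-0.38 to 0.24) and Atf3 (-0.42 to 0.17). AMSC and APAP livers share only 2 replicate numbers, whose deviations correlated at -0.104 and -0.293, so no pairing was assumed; with the replicate block 335 genes and 2 AP-1 genes (Fosl1 and Maff) were called, Fosl2 had an adjusted p of 0.0733, and Jun had -0.20. All genes called in APAP against NC were 766, with 478 for a mean of at least 5 FPKM and 1197 under voom. In AMSC against APAP they were 190, with 21 for all genes above 0, 102 for a mean of at least 5 FPKM, 296 under voom and 90 to 229 without single replicates, and in AMSC against NC 583, with 915 at a pseudocount of 0.1 and 968 under voom. The causes of these changes were not tested. The few reads of Fosl1, Fosb and Batf in the NC livers limit the precision of their ratios.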

Other observations

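By the root mean square difference of log2(FPKM + 1), taken relative to each gene's NC mean over the 9 libraries, the pattern nearest to Jun was that of Cdkn1a, at 0.0914. Its mean level was 0.301, 63.0 and 64.9 FPKM in the NC, APAP and AMSC groups. The next nearest to Jun were Mt2 (0.469) and Btg2 (0.509). Hmox1 (0.412) and Maff (0.428) were nearest to Fos, Gadd45b (0.314) to Junb, Egr1 (0.422) to Atf3 and Fos (0.428) to Maff. The measure follows the size of the rise on this scale as well as its shape, and it is a description over libraries of which 6 were dosed and 3 were not.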
